A study of Mus musculus with 28 samples.

Results

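The comparison described here sets activated against resting regulatory T (Treg) cells of the spleen in wild-type (WT) mice. It covers 6 of the 28 RNA-seq libraries of the series, chosen by the sample titles alone: 3 libraries titled WT_Spl_aTreg and 3 titled WT_Spl_rTreg. The labels call both populations regulatory T cells from spleen, sorted from male mice aged 6 to 8 weeks, and do not expand the letters a and r. All mice of the series carried a gfp reporter in the Foxp3 gene, here in the genotype Wild type Foxp3-gfp. The series asked how Treg cells change when conserved non-coding sequence 3 (CNS3), an enhancer inside Foxp3, is deleted. Its KO mice (Foxp3-deltaCNS3-gfp) gave 4 aTreg and 4 rTreg libraries, which are used below as a separate set in which the same populations were compared. WT thymic Treg libraries, 3 in number, are set beside some values. The design text speaks of a pair of littermates, and no label ties a library to a mouse, so p-values here measure the spread between libraries, which may in part be technical.

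Treg cells are CD4 T cells that restrain immune responses and depend on the transcription factor Foxp3. In spleen and lymph nodes some of them circulate through lymphoid tissue in a resting state, with high levels of homing receptors such as the chemokine receptor Ccr7. Others have met antigen, have lost those homing receptors and carry receptors for inflamed tissue, inhibitory receptors and suppressive cytokines. Such cells are usually called activated or effector Treg cells. Cd44 is among the surface markers often used to separate the populations by sorting. The sources used here do not give the gate, so a difference in a marker that was gated on would be set by the sort.

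The files hold raw counts per gene. The aTreg libraries had 28374021, 26928420 and 30036255 counts in genes and the rTreg libraries 31612618, 30095018 and 37487275. Levels below are CPM, read counts scaled to a common size after TMM normalisation of the libraries, and they are not scaled by gene length, so levels of different genes are not compared. Libraries of 1 group differed from each other by a median of 0.114 to 0.161 on the log2 scale over all genes tested, and libraries of different groups by 0.212 to 0.247. Both populations carried the defining T cell genes. Cd4 stood at 838 ± 76.8 CPM in aTreg and 790.4 ± 168 CPM in rTreg libraries (SD, n = 3 each here and below), and Cd3e at 1892 ± 90.2 CPM in aTreg and 1515 ± 107 CPM in rTreg libraries.

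The aTreg libraries held more RNA of myeloid genes than the rTreg libraries. The summed level of 17 monocyte, macrophage and neutrophil markers was 659.9, 399 and 399.8 CPM in the aTreg libraries, against 65.5, 55.1 and 60.3 CPM in the rTreg libraries, a ratio of 8.07 between the means, with the first aTreg library the highest. Dendritic cell markers summed to 1559, 850.5 and 971 CPM in the aTreg libraries, against 493, 376 and 359.8 CPM in the rTreg libraries, without overlap. B cell markers summed to 217, 176 and 155 CPM in the aTreg libraries, against 186, 142 and 136 CPM in the rTreg libraries, and these ranges overlapped. The part of these cells in the differences below was not tested directly. As a guide, counts are repeated below with the log2 myeloid sum of each library as a covariate, an alternative chosen after seeing the data. Since that sum does not overlap between the groups, such a fit also loses precision on the group difference itself. The fit held all 28 libraries, so its slope on the sum was also set by thymic and KO libraries. Its values are therefore not splenic differences corrected for myeloid RNA.

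The aTreg and rTreg libraries differed across a wide range of genes. Of 13338 genes tested over all 28 libraries, 5060 (37.9%) passed an adjusted p of 0.05. Of these, 2650 (19.9% of the genes tested) were higher in aTreg and 2410 (18.1%) were lower. The rises were larger than the falls: 1364 genes (10.2%) rose and 436 (3.27%) fell by at least 2-fold, and the median log2 fold change was 1.06 among genes that rose and -0.46 among genes that fell. Over all genes tested the median was -0.01. In 6089 genes (45.7%) the 3 aTreg and the 3 rTreg libraries did not overlap. These shares are the background for the counts of each gene list given in the following paragraphs. With the myeloid sum as covariate, 1305 genes were higher and 1177 lower.

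**Figure D1:**
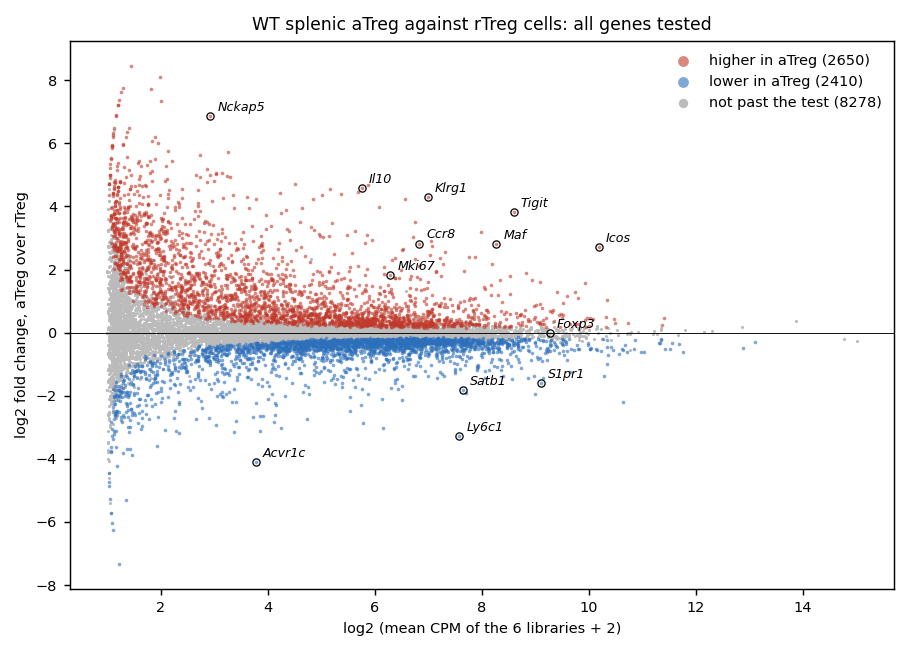
Each point is 1 of 13338 genes, with its mean level over the 6 WT splenic libraries on a log2 axis (CPM + 2) and its log2 fold change, aTreg over rTreg. Genes past the test are red (2650 higher in aTreg) or blue (2410 lower). Large rises at low levels are numerous, while Foxp3 lies near 0.

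Many of the largest rises were at low levels. Of 738 genes that rose at least 4-fold, 334 had under 2 CPM in aTreg and 49 had 50 CPM or more. Of 135 genes that fell at least 4-fold, 9 had 50 CPM or more in rTreg. Levels in the first aTreg library were set against the mean of the other aTreg libraries. The genes that rose 4-fold but stayed under 2 CPM had a median ratio of 1.43, and the 49 genes at 50 CPM or more 1.01. The myeloid markers had 1.41 and all genes tested 0.99. These ratios rest on a single library, and their cause was not tested.

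Nckap5 rose most among genes that reached 8 CPM in 1 of the groups and did not overlap. It had 14.1, 11.2 and 8.01 CPM in the aTreg libraries, against 0.0972, 0 and 0.163 CPM in the rTreg libraries (log2 fold change 6.86 ± 0.75 SE, adjusted p = 2.48e-08). Its log2 fold change was 7.69 without the third rTreg library and 4.01 with the covariate. The next rises were Arnt2, a transcription factor of the bHLH-PAS family, with 14.9 ± 5.54 CPM in aTreg and 0.282 ± 0.158 CPM in rTreg libraries (log2 fold change 5.72), and Prune2 (5.64, or 5.0 without the third rTreg library). Ky had a log2 fold change of 5.07. The other 8 of the 12 largest rises were P2ry13, Cd5l, Treml4, Mrc1, C1qc, Fcna, Adamdec1 and Gp49a, with log2 fold changes of 4.93 to 5.2. Several of these are known from macrophages: Cd5l is secreted by them, Mrc1 is their mannose receptor, and C1qc is a chain of complement C1q. In all 8 the first aTreg library was the highest, as for Mrc1 with 17.7, 7.74 and 6.91 CPM in the aTreg libraries, against 0.389, 0.24 and 0.354 CPM in the rTreg libraries. The log2 fold change of Cd5l was 5.85 without the second rTreg library, and that of Treml4 was 7.0 without the first rTreg library. With the covariate P2ry13, Cd5l, Treml4, Fcna and Adamdec1 no longer passed, and Adamdec1 changed sign (-0.29).

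Acvr1c, a type I receptor for activin and nodal ligands, fell most. It had 0.776, 1.22 and 1.83 CPM in the aTreg libraries, against 24.9, 18.2 and 23.1 CPM in the rTreg libraries (log2 fold change -4.11 ± 0.34 SE, adjusted p = 1.46e-10), and the groups were far apart. Ly6c1, a surface protein anchored in the membrane by a lipid, had 30.9, 31.4 and 43.3 CPM in the aTreg libraries, against 413, 309 and 309 CPM in the rTreg libraries (log2 fold change -3.29 ± 0.2 SE, adjusted p = 3.65e-13). Ly6c1 has near-identical neighbours, so its counts are uncertain. The adenylyl cyclase Adcy6 had a log2 fold change of -3.14, Selp, P-selectin, of -3.12, and Myo6, a myosin that moves toward the minus end of actin, had 15.1 ± 1.64 CPM in aTreg and 123 ± 15.1 CPM in rTreg libraries. Ampd1, Dapk1, Igfbp4, Cnn3, Tmem108, Ccdc164 and Cdhr3 completed the 12, with log2 fold changes of -3.02 to -2.71. Igfbp4, a binding protein for insulin-like growth factors, had 11.9, 12 and 14.8 CPM in the aTreg libraries, against 89, 93 and 98.3 CPM in the rTreg libraries.

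Promoter sequences are shown for the 2 largest rises and the 2 largest falls of those lists that have one in the RefSeq promoter table (build GRCm38.p6), so that the starts of genes with opposite changes can be read side by side. Of the 24 genes, 19 had an entry. Each runs 5′ to 3′ on the gene's strand, minus in all 4, from 250 bases before to 50 after the start. Capitals mark matches to the KLF/SP motif CCNCNCCC on either strand, where neighbouring matches may overlap.
Nckap5, chr1:126830583-126830882: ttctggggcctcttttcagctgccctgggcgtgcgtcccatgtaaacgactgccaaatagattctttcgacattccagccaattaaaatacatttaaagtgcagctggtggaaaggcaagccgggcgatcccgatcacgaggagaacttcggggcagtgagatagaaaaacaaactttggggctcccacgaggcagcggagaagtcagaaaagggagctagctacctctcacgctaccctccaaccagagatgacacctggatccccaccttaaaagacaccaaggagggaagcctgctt
Arnt2, chr7:84409989-84410288: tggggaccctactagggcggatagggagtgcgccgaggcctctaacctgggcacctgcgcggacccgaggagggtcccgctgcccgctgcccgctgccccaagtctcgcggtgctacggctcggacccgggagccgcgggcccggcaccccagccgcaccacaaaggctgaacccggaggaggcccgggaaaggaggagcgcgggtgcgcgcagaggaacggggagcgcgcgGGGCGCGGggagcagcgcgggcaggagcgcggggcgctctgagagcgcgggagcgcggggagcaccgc
Acvr1c, chr2:58357709-58358008: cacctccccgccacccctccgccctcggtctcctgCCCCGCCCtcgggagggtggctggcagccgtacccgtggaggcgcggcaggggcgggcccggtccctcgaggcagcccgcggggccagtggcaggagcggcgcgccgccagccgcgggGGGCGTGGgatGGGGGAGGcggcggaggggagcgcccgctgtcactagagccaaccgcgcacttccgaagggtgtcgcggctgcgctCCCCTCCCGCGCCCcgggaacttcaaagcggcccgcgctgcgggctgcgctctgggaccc
Ly6c1, chr15:75048788-75049087: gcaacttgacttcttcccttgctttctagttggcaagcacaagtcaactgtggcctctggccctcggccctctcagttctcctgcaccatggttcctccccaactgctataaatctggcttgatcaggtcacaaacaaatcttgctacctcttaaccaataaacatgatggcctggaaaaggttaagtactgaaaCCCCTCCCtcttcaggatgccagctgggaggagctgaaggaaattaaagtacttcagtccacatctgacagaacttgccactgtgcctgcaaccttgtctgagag

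The Acvr1c promoter held 5 matches to CCNCNCCC, those of Arnt2 and Ly6c1 held 1 each and that of Nckap5 none. Of 27025 promoters of the same length, 49.1% held at least 1. The other motifs searched on both strands were AP-1 (TGANTCA, in 7.93% of promoters), TCF/LEF (CTTTGAT, 3.72%), forkhead (GTAAACA, 3.55%), NF-kB (GGGANTTTC, 1.15%) and STAT (TTCNNNGAA, 8.47%). Their letters were in none of the 4 windows.

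Foxp3, the factor that defines the lineage (chrX:7573644-7595245 on GRCm38, plus strand), did not pass the test. It had 654, 587 and 595 CPM in the aTreg libraries, against 614, 663 and 579 CPM in the rTreg libraries (log2 fold change -0.02 ± 0.093 SE, adjusted p = 0.92). The ranges overlapped. Of the 23 genes of the Treg identity list, 12 rose, 5 fell and 6 did not pass, with a median log2 fold change of 0.48. With the myeloid covariate 10 rose and 6 fell.

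Genes of suppressive function and of activation were among the rises. Il10 (chr1:131019845-131024974), an anti-inflammatory cytokine, had 91.6, 109.5 and 98.7 CPM in the aTreg libraries, against 2.3, 6.02 and 4.25 CPM in the rTreg libraries, a 23.9-fold difference (log2 fold change 4.58 ± 0.27 SE, adjusted p = 9.01e-13). Klrg1, an inhibitory receptor of terminally differentiated cells, had 243, 263 and 210.5 CPM in the aTreg libraries, against 9.53, 17.1 and 10.3 CPM in the rTreg libraries (log2 fold change 4.29 ± 0.23 SE, adjusted p = 3.41e-14). No aTreg value of these 2 genes came near an rTreg value. Itgae, the CD103 integrin chain that binds E-cadherin, averaged 476 ± 11 CPM in aTreg and 105 ± 20.7 CPM in rTreg libraries. Tnfrsf9 (4-1BB) and Tnfrsf4 (OX40), co-stimulatory receptors of the TNF receptor family, rose by 1.66 and 1.09, and Cd83 rose by 1.78. Ctla4, which strips co-stimulatory ligands from antigen-presenting cells, had 1206 ± 6.87 CPM in aTreg and 496 ± 4.35 CPM in rTreg libraries (log2 fold change 1.28 ± 0.14 SE, adjusted p = 1.44e-08). Ikzf2 (Helios), a factor often linked to thymic origin, had 1491 ± 71.3 CPM in aTreg and 1065 ± 105 CPM in rTreg libraries (log2 fold change 0.48 ± 0.16 SE, adjusted p = 0.0161). The Ikzf2 call was lost without the second aTreg library (0.45), without the second rTreg library (0.42) and with the covariate, where it changed sign (-0.21). With the covariate Klrg1 rose by 3.6 and Cd83 by 1.16. Ctla4 and Ikzf2 are outside the naming rule and were chosen after their values were seen.

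Other identity genes went the opposite way. Gpr83, an orphan receptor of resting Treg cells, had 305, 304 and 299 CPM in the aTreg libraries, against 777, 884 and 811 CPM in the rTreg libraries (log2 fold change -1.45 ± 0.087 SE, adjusted p = 3.06e-13). Ecm1, a secreted matrix protein, averaged 253 ± 29.5 CPM in aTreg and 681 ± 12.7 CPM in rTreg libraries (log2 fold change -1.43 ± 0.093 SE, adjusted p = 1.33e-12). Il2ra, the high-affinity chain of the IL-2 receptor, had 1333, 1432 and 1463 CPM in the aTreg libraries, against 2029, 2016 and 2193 CPM in the rTreg libraries. These ranges did not overlap, yet Il2ra did not pass the test over all 28 libraries (log2 fold change -0.56 ± 0.4 SE, adjusted p = 0.277). In a fit of the 6 WT splenic libraries alone it did (log2 fold change -0.55, adjusted p = 6.67e-05), and with the covariate its log2 fold change was -2.38.

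Some of the genes tested that keep lymphocytes in circulation through lymphoid tissue were lower in aTreg. Of 14 tested homing and egress genes 7 fell, 3 rose and 4 did not pass, with a median of -0.3. Ccr7, which guides cells into lymph nodes, had 191, 195 and 216 CPM in the aTreg libraries, against 585, 578 and 486 CPM in the rTreg libraries (log2 fold change -1.45 ± 0.12 SE, adjusted p = 1.09e-10). S1pr1, the receptor for the egress signal sphingosine 1-phosphate, had 274, 267 and 275 CPM in the aTreg libraries, against 853, 836 and 778 CPM in the rTreg libraries (log2 fold change -1.59 ± 0.08 SE, adjusted p = 1.16e-14). Klf2, the factor that drives S1pr1, averaged 23.8 ± 4.18 CPM in aTreg and 81.3 ± 4.98 CPM in rTreg libraries (log2 fold change -1.77 ± 0.17 SE, adjusted p = 2.31e-09). Gpr183, an oxysterol receptor that positions cells in the spleen, rose (247 ± 13.4 CPM in aTreg and 154 ± 13.8 CPM in rTreg libraries; log2 fold change 0.68). Cd69, which holds S1pr1 inside the cell, had 352 ± 10.8 CPM in aTreg and 383 ± 14.9 CPM in rTreg libraries and did not pass (log2 fold change -0.12 ± 0.11 SE, adjusted p = 0.407), although it fell with the covariate (-0.5, adjusted p = 0.00479).

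Transcription factors of the resting and naive state fell together. Of 21 tested, 16 fell, 1 (Tox) rose and 4 did not pass, with a median of -0.63 and no overlap between groups in 19. With the myeloid covariate 15 fell. Satb1 (chr17:51736187-51833290), a chromatin organiser of T cells, had 83.1, 84.7 and 93.4 CPM in the aTreg libraries, against 337, 287 and 307 CPM in the rTreg libraries, 3.56-fold lower in aTreg (log2 fold change -1.83 ± 0.083 SE, adjusted p = 1.07e-15). Bach2, a repressor that holds back effector genes, had 37.1, 44 and 46.7 CPM in the aTreg libraries, against 121, 110.1 and 131 CPM in the rTreg libraries (log2 fold change -1.5 ± 0.09 SE, adjusted p = 2.8e-13). Lef1 and Tcf7, the partners of Wnt signalling that mark naive and memory T cells, had log2 fold changes of -1.12 and -1.01. Foxp1, a forkhead factor of quiescence, averaged 422 ± 18.7 CPM in aTreg and 762 ± 40.7 CPM in rTreg libraries, and Ikzf1 (Ikaros) 395 ± 16.9 CPM in aTreg and 686 ± 35 CPM in rTreg libraries. Id3, an inhibitor of E proteins, averaged 189 ± 22.9 CPM in aTreg and 319.9 ± 46.1 CPM in rTreg libraries, while Tox, an HMG-box factor, averaged 442 ± 23.5 CPM in aTreg and 295 ± 7.71 CPM in rTreg libraries. The Id3 call was lost with the covariate (-0.18). Id3 and Tox are outside the naming rule and were chosen after their values were seen.

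Factors of effector differentiation went the other way. Of 28 tested 19 rose, 3 (Eomes, Stat3 and Stat4) fell and 6 did not pass, with a median of 1.17. With the covariate 13 rose and none fell. Maf (chr8:115682942-115707794), a driver of Il10, had 510.5, 549 and 555 CPM in the aTreg libraries, against 69.3, 81.2 and 79.6 CPM in the rTreg libraries, 7.01-fold higher in aTreg (log2 fold change 2.81 ± 0.15 SE, adjusted p = 3.14e-14). Prdm1 (Blimp-1), which marks effector Treg cells, had 159, 166 and 134 CPM in the aTreg libraries, against 25.3, 26.9 and 22.9 CPM in the rTreg libraries (log2 fold change 2.61 ± 0.19 SE, adjusted p = 1.06e-11). Batf, an AP-1 family partner of Irf4, averaged 191 ± 28.6 CPM in aTreg and 62.3 ± 7.52 CPM in rTreg libraries (log2 fold change 1.61 ± 0.11 SE, adjusted p = 1.65e-12). Id2, which antagonises E proteins as Id3 does, averaged 321 ± 7.03 CPM in aTreg and 83.5 ± 9.21 CPM in rTreg libraries, so that the pair changed in opposite directions. Ikzf3 (Aiolos) and Hif1a rose by 1.45 and 1.09. Gata3, the Th2 factor that tissue Treg cells also use, had 294 ± 14.3 CPM in aTreg and 301 ± 26.5 CPM in rTreg libraries and did not pass (log2 fold change -0.03 ± 0.075 SE, adjusted p = 0.759).

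**Figure D2:**
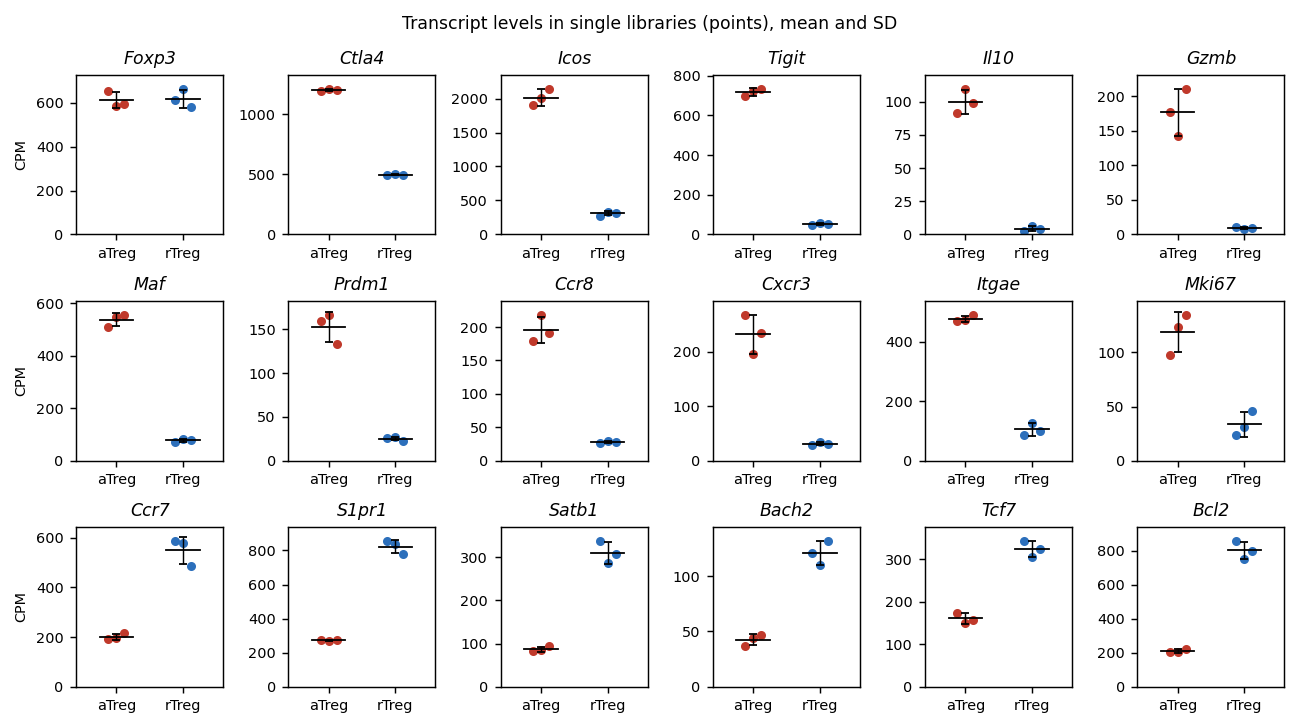
Levels of 18 genes in CPM, with 1 point per library, a line at the mean and bars of 1 SD (n = 3), aTreg left and rTreg right. Foxp3 ranges overlap, while in the other 17 genes every aTreg library lies on 1 side of every rTreg library.

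Receptors for inflammatory and tissue chemokines rose as a group. Of 17 tested 14 rose, none fell and 3 did not pass, with a median of 3.17, and all 14 changed at least 2-fold. With the covariate 10 rose, and Ccr3 had 2.51, Ccr2 2.33, Cxcr3 2.0, Ccr4 1.48 and Ccr6 1.05. The chemokine receptor genes stood in the first aTreg library at a median of 1.2 times the mean of the other aTreg libraries. Ccr8 (chr9:120092114-120094906), a receptor of tissue and tumour Treg cells, had 179.8, 218 and 191 CPM in the aTreg libraries, against 26.1, 29.6 and 27.5 CPM in the rTreg libraries (log2 fold change 2.82 ± 0.12 SE, adjusted p = 2.12e-16). Cxcr3, which responds to interferon-induced chemokines and marks Th1-type Treg cells, had 267, 195 and 234 CPM in the aTreg libraries, against 28.7, 34 and 29.9 CPM in the rTreg libraries (log2 fold change 2.91 ± 0.2 SE, adjusted p = 3.17e-12). Both genes stood 7.07-fold and 7.51-fold higher in aTreg. Ccr3, the eotaxin receptor, averaged 50.5 ± 2.74 CPM in aTreg and 2.67 ± 1.23 CPM in rTreg libraries. Ccr4, a receptor for skin homing, and Ccr6, the receptor for Ccl20, rose by 2.13 and 1.8. Ccr2, the receptor for monocyte-attracting chemokines, had 452, 441 and 460.4 CPM in the aTreg libraries, against 32.6, 53 and 62.7 CPM in the rTreg libraries (log2 fold change 3.19 ± 0.31 SE, adjusted p = 4.11e-09), chosen after its values were seen.

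More integrin subunits rose than fell. Of 18 tested 9 rose, 3 fell and 6 did not pass, with a median of 0.41, and 5 rose with the covariate. The share that fell was near the 18.1% of all genes tested. Itga1 and Itgb5 rose at low levels, with 0.674 and 0.679 CPM in aTreg. Itgae had 468, 472 and 489 CPM in the aTreg libraries, against 86.1, 127 and 101 CPM in the rTreg libraries. Itgav and Itgb8, which together activate latent TGF-beta, averaged 70.7 ± 9.13 CPM in aTreg and 36.5 ± 2.66 CPM in rTreg libraries for Itgav and 59.5 ± 9.29 CPM in aTreg and 16 ± 3.02 CPM in rTreg libraries for Itgb8 (log2 fold change 1.89 ± 0.18 SE, adjusted p = 3.2e-09 for Itgb8). Itgb3 (-1.51), Itga5 (-1.14) and Itga6 (-0.78), subunits of receptors for vitronectin, fibronectin and laminin, fell. Itgb7, part of the gut-homing integrin, had 424 ± 30.4 CPM in aTreg and 486 ± 8.1 CPM in rTreg libraries and did not pass (adjusted p = 0.0719).

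Most genes of a list of co-stimulatory and inhibitory receptors and ligands rose. Of 32 tested 21 rose, 4 fell and 7 did not pass, with a median of 0.94, and 18 rose with the covariate. The ligands Cd80, Cd86, Pdcd1lg2 and Fasl were among the rises, while the ligands Cd274 and Cd40lg did not pass. The genes of the list stood in the first aTreg library at a median of 1.01 times the mean of the other aTreg libraries. Icos (chr1:60977927-61000320), a co-stimulatory receptor related to Cd28, had 1901, 2002 and 2140 CPM in the aTreg libraries, against 275, 329 and 321 CPM in the rTreg libraries, 6.53-fold higher in aTreg (log2 fold change 2.71 ± 0.084 SE, adjusted p = 2.96e-19). Tigit (chr16:43648867-43664146), an inhibitory receptor for nectin-like ligands, had 698, 723 and 733 CPM in the aTreg libraries, against 47.4, 55 and 51 CPM in the rTreg libraries, 14-fold higher (log2 fold change 3.81 ± 0.22 SE, adjusted p = 1.21e-13). Tnfrsf1b (TNF receptor 2), which supports Treg expansion, had 746, 748 and 648 CPM in the aTreg libraries, against 179.7, 218 and 174 CPM in the rTreg libraries (log2 fold change 1.91 ± 0.11 SE, adjusted p = 2.38e-13). Cd96, which shares a ligand with Tigit, went down, with 253 ± 14.1 CPM in aTreg and 457 ± 15.1 CPM in rTreg libraries (log2 fold change -0.86 ± 0.06 SE, adjusted p = 7.34e-12), and the death receptor Fas averaged 108 ± 11.1 CPM in aTreg and 193 ± 13.2 CPM in rTreg libraries. Cd27 had 622 ± 31.3 CPM in aTreg and 569 ± 55.1 CPM in rTreg libraries and did not pass (log2 fold change 0.13 ± 0.067 SE, adjusted p = 0.137), although it did with DESeq2 (adjusted p = 0.0422), without the second rTreg library (adjusted p = 0.0466) and with the covariate (log2 fold change 0.31, adjusted p = 0.0132).

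Genes of secreted suppressive, cytotoxic and cytokine products also rose. Of 29 tested 21 rose, 2 (Prf1 and Tnfsf8) fell and 6 did not pass, with a median of 2.54, and 13 rose with the covariate. Some of the rises were at low levels, such as Il17a (0.467 CPM in aTreg), Il21 (0.608 CPM) and Spp1 (0.298 CPM). Gzmb, the protease granzyme B, had 177, 142 and 210.1 CPM in the aTreg libraries, against 10.2, 7.87 and 9.91 CPM in the rTreg libraries, 18.9-fold higher in aTreg (log2 fold change 4.24 ± 0.37 SE, adjusted p = 4.58e-10). Fgl2, a secreted fibrinogen-like suppressor, had 212, 178 and 192 CPM in the aTreg libraries, against 13.1, 16.3 and 22 CPM in the rTreg libraries (log2 fold change 3.5 ± 0.33 SE, adjusted p = 1.54e-09). Ebi3, the subunit of IL-27 and IL-35, averaged 39.1 ± 5.55 CPM in aTreg and 5.99 ± 1.25 CPM in rTreg libraries. Penk, the precursor of enkephalins, had 192, 292 and 206 CPM in the aTreg libraries, against 30.8, 43.2 and 29.5 CPM in the rTreg libraries (log2 fold change 2.74 ± 0.23 SE, adjusted p = 1.65e-10), and the chemokine Ccl5 averaged 184 ± 8.25 CPM in aTreg and 22.4 ± 3.21 CPM in rTreg libraries. Tgfb1, a classical Treg product, had 4.0 ± 0.528 CPM in aTreg and 3.97 ± 0.69 CPM in rTreg libraries and did not pass (log2 fold change 0.01 ± 0.19 SE, adjusted p = 0.975). Ifng, a cytokine of conventional helper cells, had 15.8, 10.6 and 14.4 CPM in the aTreg libraries, against 1.88, 1.71 and 2.1 CPM in the rTreg libraries (log2 fold change 2.84 ± 0.35 SE, adjusted p = 1.97e-07). With the covariate the log2 fold changes were 2.75 for Gzmb, 2.23 for Fgl2, 1.79 for Ebi3, 1.65 for Ccl5 and 2.09 for Ifng.

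The list of cytokine receptors split. Of 32 tested 12 rose, 9 fell and 11 did not pass, with a median of 0.04. The decoy receptor Il1r2, which binds interleukin 1 without signalling, had 104, 144 and 124 CPM in the aTreg libraries, against 4.34, 10.7 and 8.74 CPM in the rTreg libraries (log2 fold change 3.97 ± 0.3 SE, adjusted p = 3.34e-11). Il9r averaged 14.9 ± 0.61 CPM in aTreg and 2.08 ± 0.559 CPM in rTreg libraries and Il12rb1, the shared chain of the IL-12 and IL-23 receptors, 63.6 ± 7.34 CPM in aTreg and 22.8 ± 0.765 CPM in rTreg libraries. Tgfbr3, a TGF-beta co-receptor, Ifngr2, the signalling chain of the interferon gamma receptor, and Il17ra fell, with log2 fold changes of -1.47, -1.08 and -0.92. Il7r, whose protein is low on Treg cells, averaged 539 ± 60 CPM in aTreg and 503 ± 27.7 CPM in rTreg libraries and did not pass (log2 fold change 0.1 ± 0.096 SE, adjusted p = 0.447).

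Genes induced by the T cell receptor (TCR) rose in part. Of 24 tested 11 rose, 2 (Myc and Dusp2) fell and 11 did not pass, with a median of 0.37, and 10 rose and 6 fell with the covariate. Cd44, an adhesion receptor kept after activation, had 403, 370.1 and 377 CPM in the aTreg libraries, against 155, 142 and 146 CPM in the rTreg libraries (log2 fold change 1.37 ± 0.068 SE, adjusted p = 7.6e-15). Nfatc1, a calcium-regulated factor that induces its own gene, averaged 295 ± 28.2 CPM in aTreg and 175 ± 7.57 CPM in rTreg libraries (log2 fold change 0.75 ± 0.1 SE, adjusted p = 1.05e-06). Myc, the factor of cell growth, had 146, 164 and 155 CPM in the aTreg libraries, against 332, 363 and 289 CPM in the rTreg libraries (log2 fold change -1.08 ± 0.11 SE, adjusted p = 1.55e-08), so it was lower in the population with more mitotic transcripts. Of 26 genes of the TCR complex and its proximal signalling, 8 rose, 10 fell and 8 did not pass, and 5 fell with the covariate. Themis, a regulator of TCR signal strength, averaged 44 ± 4.03 CPM in aTreg and 122 ± 9.52 CPM in rTreg libraries (log2 fold change -1.48 ± 0.096 SE, adjusted p = 1.33e-12), and the Tec family kinase Txk 87.3 ± 7.82 CPM in aTreg and 216 ± 14.4 CPM in rTreg libraries. Prkcq, the theta isoform of protein kinase C, fell by 0.85 on the log2 scale. Malt1, the paracaspase of the pathway to NF-kB, rose by 1.06, and Sla, an adaptor that dampens TCR signals, by 0.79. The Src family kinase Lck had 1782 ± 80.7 CPM in aTreg and 1767 ± 98.5 CPM in rTreg libraries and did not pass (log2 fold change 0.01 ± 0.064 SE, adjusted p = 0.899).

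Regulators of G protein signalling gave 7 rises and 3 falls among 20 tested. Rgs16, which shortens signals of chemokine receptors, averaged 51.4 ± 7.7 CPM in aTreg and 19.4 ± 1.03 CPM in rTreg libraries (log2 fold change 1.4 ± 0.14 SE, adjusted p = 5.24e-09). Ptger4, a prostaglandin E2 receptor, and the G protein subunit Gnaq rose by 0.71 and 0.86.

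Of 25 S100, annexin, galectin and cytoskeletal genes 13 rose, 2 fell and 10 did not pass, with a median of 0.84, and 13 rose with the covariate. The calcium-binding S100a4 had 91.5, 88.5 and 118 CPM in the aTreg libraries, against 10.7, 13.2 and 11 CPM in the rTreg libraries (log2 fold change 3.1 ± 0.26 SE, adjusted p = 2.64e-10). S100a6 averaged 364 ± 65.7 CPM in aTreg and 68.4 ± 10.1 CPM in rTreg libraries and S100a11 249 ± 33.5 CPM in aTreg and 55.5 ± 8.3 CPM in rTreg libraries. Ahnak, a large scaffold protein, had 512 ± 24.5 CPM in aTreg and 221 ± 29 CPM in rTreg libraries, and the myosin Myo1f rose by 2.33.

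Transcripts of dividing cells were more abundant in aTreg. All 30 mitosis genes rose, with a median of 1.5 and no overlap between groups in any, and 21 rose with the covariate. Their summed level was 882, 1015 and 1223 CPM in the aTreg libraries, against 281, 411 and 438 CPM in the rTreg libraries. In the first aTreg library they stood at a median of 0.784 times the mean of the other aTreg libraries. Mki67, the proliferation antigen, had 98, 124 and 134 CPM in the aTreg libraries, against 23.4, 31.2 and 46.2 CPM in the rTreg libraries (log2 fold change 1.82 ± 0.23 SE, adjusted p = 3.75e-07). Prc1, which organises the spindle midzone, averaged 57 ± 7.26 CPM in aTreg and 17.9 ± 3.5 CPM in rTreg libraries, and the topoisomerase Top2a 180.5 ± 32.2 CPM in aTreg and 67.5 ± 17.6 CPM in rTreg libraries. Of 30 genes of DNA replication and S phase 24 rose, none fell and 6 did not pass, with a median of 0.76. With the covariate 3 rose. Rrm2, a subunit of ribonucleotide reductase, had 135, 163 and 224 CPM in the aTreg libraries, against 40.7, 55.5 and 62.6 CPM in the rTreg libraries (log2 fold change 1.72 ± 0.21 SE, adjusted p = 1.43e-07), and Mcm6, of the replicative helicase, averaged 256 ± 25 CPM in aTreg and 154 ± 17.2 CPM in rTreg libraries.

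Among 18 tested cyclins and inhibitors of G1 phase, 3 rose, 7 fell and 8 did not pass. With the covariate 2 rose and 2 fell. Cdkn2c (p18) averaged 25.5 ± 3.58 CPM in aTreg and 4.92 ± 0.902 CPM in rTreg libraries (log2 fold change 2.37 ± 0.17 SE, adjusted p = 1.49e-11), while its relative Cdkn2d (p19) averaged 86.8 ± 10.3 CPM in aTreg and 176 ± 8.55 CPM in rTreg libraries (log2 fold change -1.02 ± 0.077 SE, adjusted p = 2.36e-11). These inhibitors of the same cyclin-dependent kinases thus went in opposite directions. Cyclin D3 (Ccnd3) fell by 0.45 on the log2 scale.

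Survival genes changed in both directions. Of 23 BCL2 family and death regulators 11 rose, 7 fell and 5 did not pass, and 4 rose and 6 fell with the covariate. Bcl2 (chr1:106538178-106714274), the protein that protects resting lymphocytes, had 204, 202 and 222 CPM in the aTreg libraries, against 856, 753 and 802 CPM in the rTreg libraries, 3.84-fold lower in aTreg (log2 fold change -1.94 ± 0.086 SE, adjusted p = 9.97e-16). Bcl2l11 (Bim), the killer protein that Bcl2 restrains, averaged 51.9 ± 4.28 CPM in aTreg and 93.9 ± 2.79 CPM in rTreg libraries (log2 fold change -0.85 ± 0.097 SE, adjusted p = 5.13e-08). Bcl2a1b, of the A1 subfamily, averaged 112 ± 5.86 CPM in aTreg and 43 ± 2.25 CPM in rTreg libraries (log2 fold change 1.38 ± 0.092 SE, adjusted p = 2.32e-12), a gene with near-identical copies that may share reads. The initiator caspase Casp8 averaged 284 ± 20.7 CPM in aTreg and 450 ± 23.3 CPM in rTreg libraries.

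Metabolic lists were mixed. Glycolysis gave 8 rises, 5 falls and 10 genes that did not pass of 23, with a median of 0.15, and 7 rose and 3 fell with the covariate. Some members had few counts: Gapdh averaged 3.69 CPM in aTreg and 3.31 CPM in rTreg libraries. Eno1 averaged 4.29 CPM in aTreg and 4.04 CPM in rTreg libraries, and Pgam1 4.02 and 2.56 CPM. Reads with several alignments were not counted and may be missing from such genes. Aldoa, an enzyme of the upper pathway, averaged 682 ± 58.9 CPM in aTreg and 499 ± 28.3 CPM in rTreg libraries. Eno3, a muscle-type enolase, averaged 40.5 ± 3.02 CPM in aTreg and 90 ± 4.38 CPM in rTreg libraries (log2 fold change -1.15 ± 0.086 SE, adjusted p = 2.01e-11). Pdk1, a kinase that inhibits pyruvate dehydrogenase, fell by 1.06 on the log2 scale. Cholesterol and fatty acid synthesis gave 9 falls and 2 rises of 25. Leaving out 1 library gave 4 to 8 falls, with 5 without the first aTreg library, 5 without the second and 4 without the third. Hmgcs1, an early enzyme of sterol synthesis, averaged 81.8 ± 2.68 CPM in aTreg and 118 ± 4.14 CPM in rTreg libraries (log2 fold change -0.53 ± 0.095 SE, adjusted p = 5.82e-05). Of 8 GIMAP genes, GTPases of lymphocytes, 2 rose and 3 fell, and 1 rose and 1 fell with the covariate. Gimap7 averaged 804 ± 9.43 CPM in aTreg and 486 ± 62.5 CPM in rTreg libraries and Gimap4 2414 ± 57.7 CPM in aTreg and 2834 ± 126 CPM in rTreg libraries, and neither passed with the covariate.

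More interferon-stimulated genes fell than rose. Of 30 tested 12 fell, 2 rose and 16 did not pass, with a median of -0.27, and 5 fell with the covariate. Usp18, which removes the ubiquitin-like Isg15, had 100, 104 and 150.5 CPM in the aTreg libraries, against 263, 247 and 279.9 CPM in the rTreg libraries (log2 fold change -1.16 ± 0.17 SE, adjusted p = 4.33e-06). Gbp2, a guanylate-binding protein, averaged 295 ± 36.3 CPM in aTreg and 525 ± 12 CPM in rTreg libraries, and Oasl2 fell by 1.58 on the log2 scale. Among 18 immediate-early and handling stress genes, which can move during cell preparation, 4 fell and 2 rose, and none fell and 1 rose with the covariate. Jun averaged 129 ± 15.5 CPM in aTreg and 216 ± 23.9 CPM in rTreg libraries, and this call was lost without the second aTreg library (log2 fold change -0.65) and with the covariate (-0.19).

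**Figure D3:**
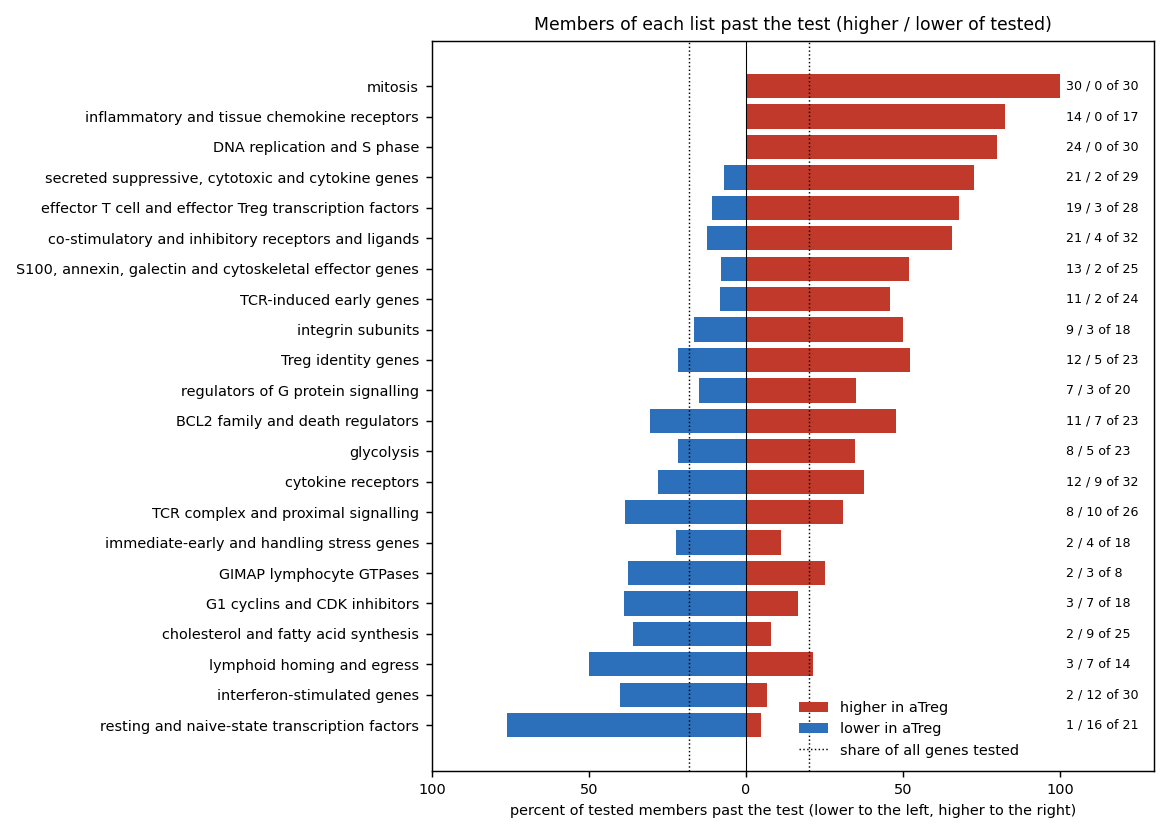
Bars give the percent of tested members of each list that passed the test, higher in aTreg to the right (red) and lower to the left (blue), with counts at the right edge. Dotted lines mark the shares over all genes tested, 19.9% higher and 18.1% lower. Mitosis genes lie at 1 end (30 of 30 higher) and resting transcription factors at the other (16 of 21 lower).

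Markers of other cell types were read in the same fit. Of 16 tested myeloid markers 11 rose and none fell, with a median of 3.15, and 3 rose with the covariate. Vcam1, an adhesion molecule of splenic red pulp macrophages and stroma, had 178, 73.1 and 76.1 CPM in the aTreg libraries, against 6.77, 2.5 and 3.43 CPM in the rTreg libraries (log2 fold change 4.69 ± 0.63 SE, adjusted p = 9.03e-07). Csf1r, the receptor for macrophage growth factor, had 50.1, 21 and 24.5 CPM in the aTreg libraries, against 2.88, 2.26 and 1.72 CPM in the rTreg libraries (log2 fold change 3.81 ± 0.47 SE, adjusted p = 2.68e-07). Hmox1, the enzyme that degrades heme, had 101, 35.4 and 38.4 CPM in the aTreg libraries, against 4.73, 2.81 and 1.01 CPM in the rTreg libraries, with a log2 fold change of 4.37. That value was 3.71 without the first aTreg library and 4.97 without the first rTreg library. With the covariate the log2 fold changes were 1.48 for Vcam1, 0.9 for Csf1r, which no longer passed, and 2.18 for Hmox1. These genes are members of the sum that serves as covariate, so their smaller values, and the smaller count of this list, follow from how it was built. In these 3 genes the first aTreg library was highest and the lowest aTreg library still exceeded every rTreg library.

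Of 13 dendritic cell markers 9 rose and none fell, and none rose with the covariate. Without the first aTreg library 3 rose, and without the second or the third rTreg library 5. Cd74, the invariant chain of class II molecules, had 1107, 628 and 709.6 CPM in the aTreg libraries, against 324, 238 and 236 CPM in the rTreg libraries (log2 fold change 1.62 ± 0.29 SE, adjusted p = 7.14e-05). Flt3, a growth factor receptor of dendritic cells, rose by 2.33 on the log2 scale, and by 1.73 without the first aTreg library. Among 14 B cell markers edgeR called none and DESeq2 none, while limma-voom called 4 higher and 1 lower and 3 were higher and 1 lower at an unadjusted p under 0.05. Without the first aTreg library edgeR called 3 lower, with the covariate 4 lower, and in the 6 WT splenic libraries alone 5 higher. It called 1 higher with DESeq2's size factors and 1 without a filter. Fcer1g and Tyrobp, signalling adaptors of myeloid and natural killer cells, rose by 3.2 and 2.81 (0.27 and -0.14 with the covariate, neither past the test). They belong to a list of CD8 T cell and natural killer cell markers, of which 12 were tested, 4 rose and 2 fell, and none rose with the covariate. The list summed to 151, 124 and 124 CPM in the aTreg libraries, against 78.2, 77.3 and 81.1 CPM in the rTreg libraries, without overlap. Cd8b1, a chain of CD8, was 1 of the 2 that fell, with 22.4 ± 2.56 CPM in aTreg and 38.3 ± 1.33 CPM in rTreg libraries. Plasma cell markers summed to 189, 116 and 116 CPM in the aTreg libraries, against 92.9, 84.8 and 90.8 CPM in the rTreg libraries, and erythroid and platelet markers to 56, 23.2 and 29.1 CPM in the aTreg libraries, against 19.2, 12.1 and 13 CPM in the rTreg libraries, both without overlap and with the first aTreg library highest. Of 7 plasma cell markers tested 2 rose and none fell, and in the 6 WT splenic libraries alone 4 rose. Of 7 erythroid and platelet markers tested edgeR called none higher and 1 lower (3 and 1 at an unadjusted p under 0.05) and DESeq2 none higher, while edgeR called 4 higher in those 6 libraries alone and 2 without a filter, and limma-voom called 3. Of 8 pan T cell markers 4 rose and none fell. Helper T cell markers gave 5 rises of 9 (3 with the covariate), with Cxcr5, the receptor that leads cells into B cell follicles, at 165 ± 42.1 CPM in aTreg and 65.1 ± 18.3 CPM in rTreg libraries (log2 fold change 1.34 ± 0.23 SE, adjusted p = 2.85e-05, or 0.82 and not past the test with the covariate). Of 10 stromal and epithelial markers tested 3 rose and 1 fell, and 1 rose with the covariate. Epcam, an epithelial adhesion molecule, had 22.1 ± 6.41 CPM in aTreg and 3.23 ± 0.558 CPM in rTreg libraries, and Pecam1, found on endothelium and on naive T cells, 149 ± 9.58 CPM in aTreg and 326 ± 33.6 CPM in rTreg libraries.

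**Figure D4:**
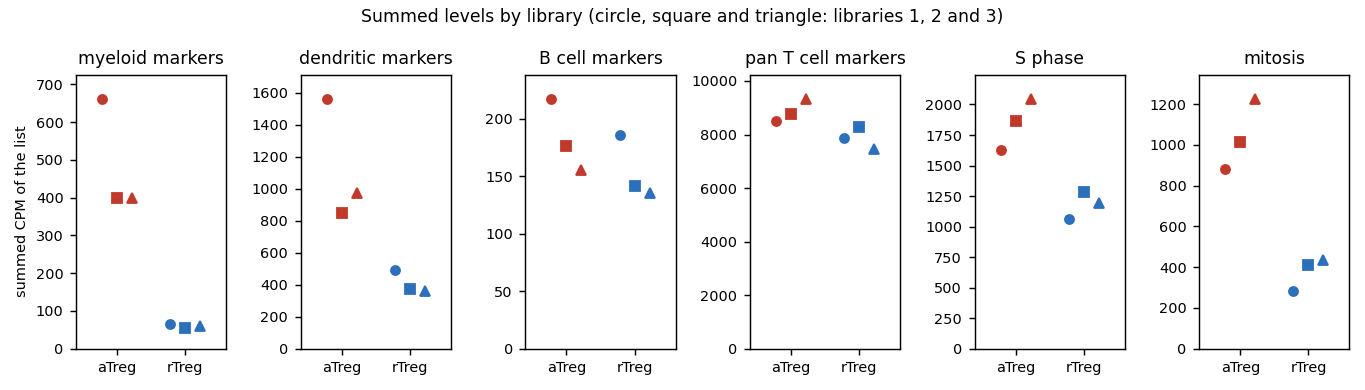
Summed levels in CPM of 4 marker lists and 2 cell cycle lists in each library, aTreg left and rTreg right, with a circle, a square and a triangle for libraries 1, 2 and 3. Myeloid sums in aTreg run from 399 to 660 CPM and in rTreg from 55.1 to 65.5 CPM, and the aTreg library with the highest myeloid sum has the lowest mitosis sum.

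The same populations were sorted from KO mice, and these 8 libraries entered the WT contrast through the filter on low counts and the shared estimate of spread. In them 5555 genes (41.6%) passed the test, 2900 (21.7%) higher and 2655 (19.9%) lower in aTreg. Of the 2650 genes that rose in WT, 2207 (83.3%) also rose in KO and none fell. Of the 2410 that fell in WT, 1875 (77.8%) fell in KO and 1 rose. The shared genes were 76.1% of the KO rises and 70.6% of the KO falls. Genes that rose at least 2-fold in WT had a median log2 fold change of 2.17 there and of 1.6 in KO, and those that fell at least 2-fold had -1.57 in WT and -1.34 in KO. Since these genes were picked on their WT values, a smaller median in KO is in part set by the choice. Summed myeloid markers averaged 323 CPM in KO aTreg and 60.2 CPM in KO rTreg libraries, so that difference was present there too.

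In KO the log2 fold change of Icos was 2.49, of Il10 3.95, of Tigit 3.22, of Bcl2 -1.93 and of Foxp3 -0.08 (adjusted p = 0.475). The change from WT to KO in the aTreg against rTreg difference was tested for every gene, and 0 of 13338 (0%) passed with edgeR. At an unadjusted p under 0.05 there were 617, and the smallest adjusted p was 0.581. DESeq2 called 1 gene, Ccr8, whose difference (KO minus WT) was -0.72 there, and limma-voom called none. With edgeR Ccr8 had a log2 fold change of 2.11 in KO and 2.82 in WT. The other genes with the smallest p in this test were Ctsz (0.53 in KO, 0.87 in WT), Phf1 (0.23 in KO, -0.36 in WT), Ptgfrn (2.39 in KO, 0.94 in WT) and Trim8 (0.39 in KO, -0.04 in WT). Phf1, of a Polycomb complex, was the gene that fell in WT and rose in KO. Its call in WT was lost in the 6 WT splenic libraries alone, without the second aTreg library (-0.28) and without the third rTreg library (-0.25).

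**Figure D5:**
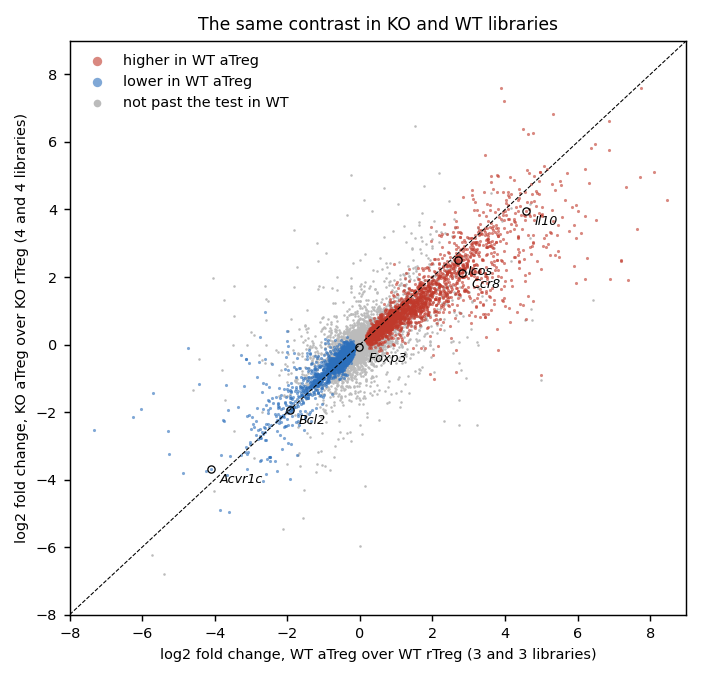
Each point is 1 gene, with its log2 fold change in WT (3 aTreg against 3 rTreg libraries) on the horizontal axis and in KO (4 against 4) on the vertical axis. Of the genes higher in WT aTreg (red), 99.1% have the same sign in KO, and of those lower (blue), 98.0%. Over all genes tested the share is 83.7%.

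Levels in WT thymic Treg libraries (n = 3) are given beside the splenic ones as a description. Satb1 had 365 ± 19.7 CPM in the thymus, above both splenic populations. Il10 had 2.78 ± 0.292 CPM and Gzmb 11.4 ± 0.876 CPM, near the rTreg levels. Some genes that rose in aTreg were also high in the thymus: Ccr8 had 152 ± 8.03 CPM, Penk 314 ± 6.54 CPM, Il1r2 144 ± 18.1 CPM and Tnfrsf4 1403 ± 8.94 CPM there. Foxp3 had 652 ± 16.3 CPM, within the splenic range.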

How the data were processed

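Total RNA was extracted with TRIzol and cDNA was made by SMART amplification and sequenced as read pairs on a HiSeq platform, per the labels' protocols. Trimmomatic, STAR, HTSeq and the mm10 build are named in the submitters' processing notes, their versions being not given in the sources used here. Per gene symbol, the authors deposited raw counts, with no normalisation. Whether counting used strand is not given, so antisense and overlapping genes may share reads. Reads with several alignments were not counted, and the counts are of reads, not molecules. Lines outside genes held 45.6 to 49.4% of gene, ambiguous and non-gene reads together in the 6 libraries. These lines entered neither library sizes nor tests. Of the 23420 symbols per file, 3712 were at 0 throughout. Pairs of libraries of 1 group had a chi-square per degree of freedom of 15.5 to 31.8, above sampling noise.

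All 28 libraries entered 1 fit of edgeR 4.0.16 with its quasi-likelihood F test (R 4.3.3), with a mean for each of 8 groups, TMM normalisation and the filterByExpr filter, which kept 13338 genes. The fit had 20 residual degrees of freedom and a biological coefficient of variation of 12.7%. P-values were adjusted by Benjamini-Hochberg over all genes tested, with a threshold of 0.05. Fold changes are log2 values with standard errors (SE), and levels are CPM after TMM scaling. limma 3.58.1 (voom) and DESeq2 1.42.0 served as alternatives. On counts simulated for this contrast (13338 genes), 88 of 100 changes of 2-fold and 64 of 100 of 1.5-fold were called, with 10 false calls. Only 100 genes were changed at each size, against 5060 called in the data. The adjusted p depends on the share of changed genes, so these rates may not hold for the data.

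The gene lists, tests and naming rule were chosen with earlier results of these data known. The rule names Foxp3, Ccr7 and Cd44, and the 12 largest called changes each way among genes that reach 8 CPM in either group without overlap (predicted genes, small RNAs and antigen receptor segments aside). It adds up to 6 members of each programme list past the test and its 3 highest that were not, up to 4 of each marker list, and the 5 lowest p-values of the KO minus WT difference. The text gives values for a part of these, and some genes are not reported here. GENCODE M21 (GRCm38) gave positions and RefSeq the promoters.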

Additional observations from a re-analysis of the deposited data

How the results depend on the processing

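The counts of 2650 genes higher and 2410 lower in aTreg stayed within 1.5 times of these under every alternative but the covariate. Higher against lower genes numbered 2875 and 2164 with DESeq2's size factors, 2436 and 2421 without a filter, 2405 and 1803 in the 6 libraries alone, 2944 and 2224 with DESeq2 and 2736 and 2443 with limma-voom. Leaving out 1 library gave 2317 to 2514 higher and 2008 to 2194 lower. With the log2 myeloid sum as covariate, chosen after seeing the data, all calls fell to 2482 (1305 higher, 1177 lower), and those in KO to 2933, against 5555 without it. The cause was not tested. No setting moved the share of higher calls by over 10 percentage points.

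With the replicate number as a block, 2858 genes were higher and 2662 lower. It also gave 8 falls among the handling stress genes, against 4, 5 falls among regulators of G protein signalling, against 3, and 4 rises among plasma cell markers, against 2, and Itgb7 passed (-0.197, adjusted p = 0.041). Deviations of same-numbered aTreg and rTreg libraries correlated at 0.374, 0.0603 and 0.137, and not every library correlated best with its own number, so the numbers were not taken to pair libraries. The KO minus WT difference called 1 gene with the block and 1 with DESeq2, Ccr8 in both (adjusted p = 0.00655 and 0.0273), against none as reported.

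Of 145 named genes, 134 kept direction and side of the threshold under every alternative but the covariate. Without the covariate, signs turned for genes near 0 that did not pass. Foxp3 had 0.0121 with DESeq2's size factors and 0.0124 with DESeq2. Lck had -0.00834 and Tgfb1 -0.0117 without a filter. Leaving out 1 library gave -0.0657 to 0.0373 for Foxp3, -0.106 to 0.0182 for Gata3, -0.0532 to 0.257 for Cd4, -0.0344 to 0.0484 for Lck and -0.113 to 0.136 for Tgfb1. With the covariate, signs turned for Adamdec1 (-0.289), Gata3 (0.0374), Ikzf2 (-0.208), Itgb7 (0.142), Trim8 (0.223) and Tyrobp (-0.144). The depth of 26928420 to 37487275 counts per library leaves genes under 0.1 CPM with about 4 counts or fewer.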

Other observations

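Families of genes taken by the start of their symbols, chosen after their values were seen, showed further differences. Of 96 tested genes with symbols that start with Rpl or Rps, 61 were lower in aTreg and 2, Rps29 and Rps27l, were higher. The median log2 fold change was -0.40 (-0.37 with DESeq2's size factors). Such symbols mostly name cytosolic ribosomal proteins. The symbol rule can also take in other genes, such as kinases with Rps symbols, so these counts may not be of ribosomal protein genes alone. Rpl4 had 2736 ± 290.2 CPM in aTreg and 4205 ± 272 CPM in rTreg libraries (SD, n = 3 each; log2 fold change -0.62). Rps19 had 384 ± 71.5 CPM in aTreg and 654 ± 88.4 CPM in rTreg libraries. In KO libraries 65 of these genes were lower and 4 higher. There Rps29 did not pass (log2 fold change 0.02) and Rps27l did (0.38). With the myeloid covariate 33 were lower in WT. Leaving out single libraries gave 46 to 66 lower and 0 to 2 higher, so the 2 rises were not stable. Ribosomal protein genes have many processed copies in the genome, so reads that map to several places may be missing from these counts.

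Of 13 tested Adam genes, surface proteases and their relatives, 8 rose and none fell. Adam8 had 34.1 ± 8.24 CPM in aTreg and 2.28 ± 0.500 CPM in rTreg libraries (log2 fold change 3.89), and Adam19 had 279 ± 41.3 CPM in aTreg and 173 ± 11.8 CPM in rTreg libraries. With the covariate 6 rose. Of 17 tested C-type lectin genes named Clec, 10 rose and 1 fell, and 2 rose with the covariate. Clec4a1, of myeloid cells, had 5.85 ± 2.33 CPM in aTreg and 0.733 ± 0.250 CPM in rTreg libraries. The part of myeloid RNA in these rises was not tested.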
